A study of Mus musculus with 6 samples.

Results

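Lsd1 occupancy was examined at the 9 histone deacetylase genes whose products are not subunits of the CoREST complex: Hdac3, Hdac4, Hdac5, Hdac6, Hdac7, Hdac8, Hdac9, Hdac10 and Hdac11. A peak was counted for a gene when its centre lay within the curated RefSeq span of that gene on mm10, or within 10 kb of either end. By this rule 44 of 43426 Lsd1 peaks belonged to the 9 genes in wild-type cells in myogenic medium, 27 of 18893 in wild-type cells in adipogenic medium and 54 of 33533 in LSD1(OE) cells in adipogenic medium. Peaks that overlapped by at least 1 bp were merged into sites, which gave 69 sites at these genes among 56729 in the 3 libraries.

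The data are ChIP-seq of Lsd1 in C2C12 cells, a mouse myoblast line, on day 1 of differentiation. Wild-type cells were kept in myogenic medium, which contains horse serum at a low concentration, or in adipogenic medium, which contains isobutylmethylxanthine, indomethacin, dexamethasone, insulin, T3 and rosiglitazone. LSD1(OE) C2C12 cells carry a lentiviral, doxycycline-inducible, Flag-tagged LSD1 and were kept in adipogenic medium, so they differ from the wild-type cells in the transgene, in drug selection and in doxycycline. Chromatin of all cells was precipitated with the same antibody against the C-terminus of Lsd1, and a condition is represented by a single ChIP library with its input. Differences below are therefore between single libraries, no value has a replicate error, and no test between conditions could be made. Intervals cover counting error only.

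Lsd1 removes methyl groups from histones and is usually found in the CoREST complex, which also holds the deacetylases Hdac1 and Hdac2. The other zinc-dependent deacetylases are grouped by sequence. Hdac3 and Hdac8 are class I enzymes, and Hdac3 is the catalytic subunit of nuclear co-repressor complexes. The class IIa proteins Hdac4, Hdac5, Hdac7 and Hdac9 bind Mef2 transcription factors and repress their targets in muscle cells until kinases cause their export from the nucleus. Hdac6 and Hdac10 form class IIb, Hdac6 being known as a cytoplasmic tubulin deacetylase and Hdac10 as a polyamine deacetylase, and Hdac11 alone forms class IV. Peaks show where Lsd1 was bound, and expression of these genes was not measured here.

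The libraries differed in depth and in the number of peaks. After duplicate filtering 46155625 ChIP tags remained in the myogenic library, 63915769 in the adipogenic library and 55193310 in the LSD1(OE) library, so the adipogenic library was the deepest and had the fewest peaks. The peak score is 10 times the −log10 of the p-value against the local background, and all deposited peaks score at least 50. The smallest tag count of any peak was 27, 35 and 30, in the same order of libraries. A promoter without a peak is one where no signal was called at this depth, and absence of Lsd1 cannot be read from it. Tag density below is the number of ChIP tags per kb of peak and per 1000000 filtered ChIP tags of the library.

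The sequences below are those around the summits that the results turn on, each with 300 bp of the mm10 (GRCm38.p6) plus strand as RefSeq gives it. An Hdac7 site and the pair of Hdac5 sites are shown because each holds a match to the MEF2 motif, in capitals. They lie at chr15:97824998-97825297, chr11:102229928-102230227 and chr11:102218756-102219055. The Hdac4 promoter at chr1:92180882-92181181 and the Hdac6 promoter at chrX:7947919-7948218 are shown as CpG-rich stretches upstream of the start sites, with GGGCGG of the minus strand, which the plus strand spells CCGCCC, in capitals. A site in Hdac4 intron 2 at chr1:92099624-92099923 is shown for its CAGCTG E-boxes, in capitals, near a summit shared by the 3 libraries. At the Hdac4 and Hdac6 promoters the ratio of observed to expected CpG was 0.79 and 0.77, against a median of 0.25 over all myogenic summit windows. No printed match overlaps a match to another of the 6 motifs searched.
Hdac7 second intronic site: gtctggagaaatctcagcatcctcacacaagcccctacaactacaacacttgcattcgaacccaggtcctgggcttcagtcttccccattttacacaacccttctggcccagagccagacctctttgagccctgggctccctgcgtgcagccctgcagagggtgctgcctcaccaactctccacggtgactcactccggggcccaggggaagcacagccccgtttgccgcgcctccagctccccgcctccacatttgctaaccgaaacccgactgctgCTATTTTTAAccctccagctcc
Hdac5 promoter: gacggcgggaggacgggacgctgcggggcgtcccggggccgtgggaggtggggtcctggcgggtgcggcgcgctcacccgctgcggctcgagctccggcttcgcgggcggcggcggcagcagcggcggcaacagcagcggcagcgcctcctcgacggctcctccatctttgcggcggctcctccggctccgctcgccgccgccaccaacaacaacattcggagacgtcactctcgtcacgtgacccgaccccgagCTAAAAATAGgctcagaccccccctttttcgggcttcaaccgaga
Hdac5 intron 2: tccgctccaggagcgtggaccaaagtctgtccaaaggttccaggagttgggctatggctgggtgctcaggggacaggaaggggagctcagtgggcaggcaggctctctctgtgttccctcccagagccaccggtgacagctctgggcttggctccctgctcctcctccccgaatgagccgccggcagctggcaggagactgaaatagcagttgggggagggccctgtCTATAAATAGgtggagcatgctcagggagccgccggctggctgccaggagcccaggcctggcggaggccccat
Hdac4 promoter: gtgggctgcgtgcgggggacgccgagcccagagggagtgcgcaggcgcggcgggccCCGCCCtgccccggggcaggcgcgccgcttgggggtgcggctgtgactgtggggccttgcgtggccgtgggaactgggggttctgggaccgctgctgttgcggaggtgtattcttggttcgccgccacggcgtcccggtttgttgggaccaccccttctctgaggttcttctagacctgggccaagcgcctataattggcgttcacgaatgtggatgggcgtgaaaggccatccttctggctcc
Hdac4 intron 2: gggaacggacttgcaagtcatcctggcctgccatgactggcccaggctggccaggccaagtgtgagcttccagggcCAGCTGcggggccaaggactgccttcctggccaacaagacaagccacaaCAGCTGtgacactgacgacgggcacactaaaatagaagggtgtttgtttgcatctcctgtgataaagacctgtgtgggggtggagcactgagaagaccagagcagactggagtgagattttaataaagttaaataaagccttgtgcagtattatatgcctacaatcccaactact
Hdac6 promoter: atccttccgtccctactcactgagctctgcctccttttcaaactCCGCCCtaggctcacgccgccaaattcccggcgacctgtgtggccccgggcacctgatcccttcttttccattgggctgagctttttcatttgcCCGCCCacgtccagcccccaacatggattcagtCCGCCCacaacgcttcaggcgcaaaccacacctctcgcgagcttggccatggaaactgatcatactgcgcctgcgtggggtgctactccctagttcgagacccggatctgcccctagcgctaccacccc

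Every one of the 9 genes had a peak in the myogenic library, and 7 had one in each of the others. Over all 26180 curated genes the share with a peak in the same kind of window was 62.5% in the myogenic, 41.2% in the adipogenic and 53.9% in the LSD1(OE) library. The adipogenic library lacked a peak at Hdac6 and Hdac9, and the LSD1(OE) library at Hdac6 and Hdac8. Hdac4 and Hdac7, both of class IIa, held 26 of the 44 myogenic, 18 of the 27 adipogenic and 38 of the 54 LSD1(OE) peaks. Counts rise with window length, which ran from 25.4 kb at Hdac10 to 890 kb at Hdac9. Per 100 kb of window the highest value of the myogenic library was 15.3 peaks at Hdac7, that of the adipogenic library 7.87 at Hdac10 and that of the LSD1(OE) library 13.9 at Hdac7. The median over the windows of all genes was 2.38, 0 and 1.17 peaks per 100 kb in the same order.

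**Figure D1:**
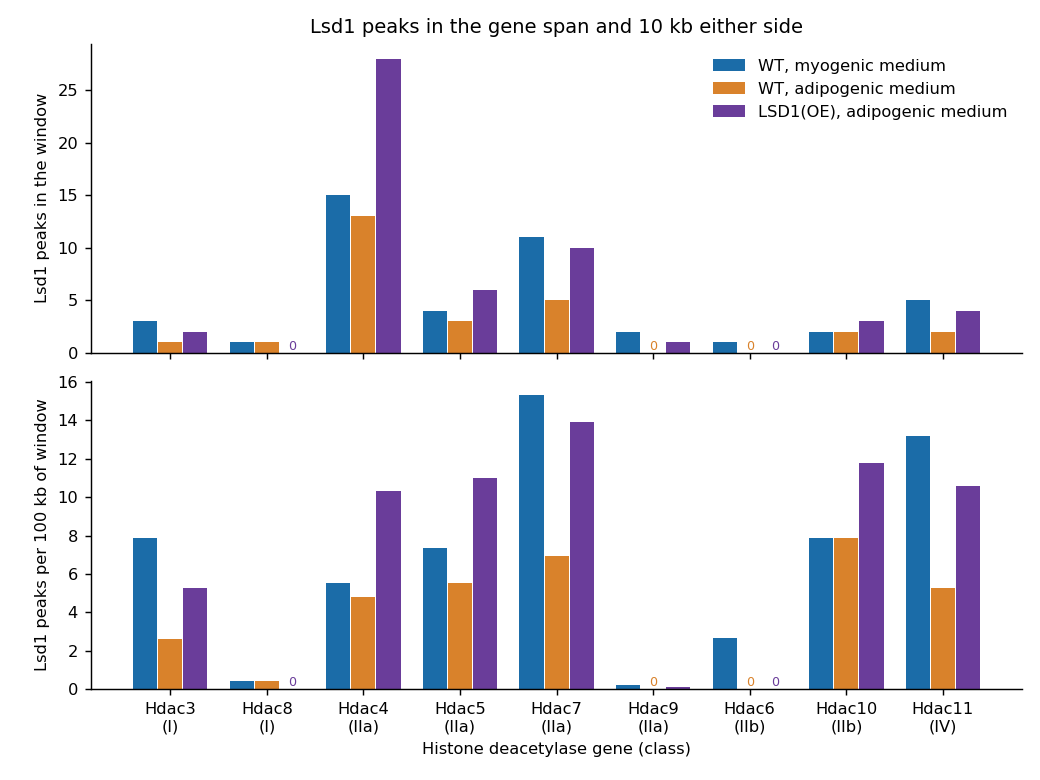
Lsd1 peaks with their centre in the span of each deacetylase gene or 10 kb either side, as a count (upper panel) and per 100 kb of that window (lower panel), 1 library for each colour and 0 printed where there was no peak. Hdac4 reached 28 peaks in LSD1(OE) cells against 15 and 13 in the wild-type libraries, and the long Hdac8 and Hdac9 windows held at most 2.

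Promoters were taken as 2000 bp either side of a curated start site. In myogenic medium 7 of the 9 genes had a promoter peak, against 3 in wild-type cells and 6 in LSD1(OE) cells in adipogenic medium. Over all curated genes the shares were 46.8%, 27.0% and 37.3%. Hdac4, Hdac7 and Hdac10 had a promoter peak in all 3 libraries. Hdac3, Hdac5 and Hdac11 had one in the myogenic and LSD1(OE) libraries and none in the adipogenic library, and Hdac6 had one in the myogenic library alone. Hdac8 and Hdac9 had none in any library, the nearest peak to a start site being 139379 bp away at Hdac8 and 50421 bp away at Hdac9, both in the myogenic library.

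**Figure D2:**
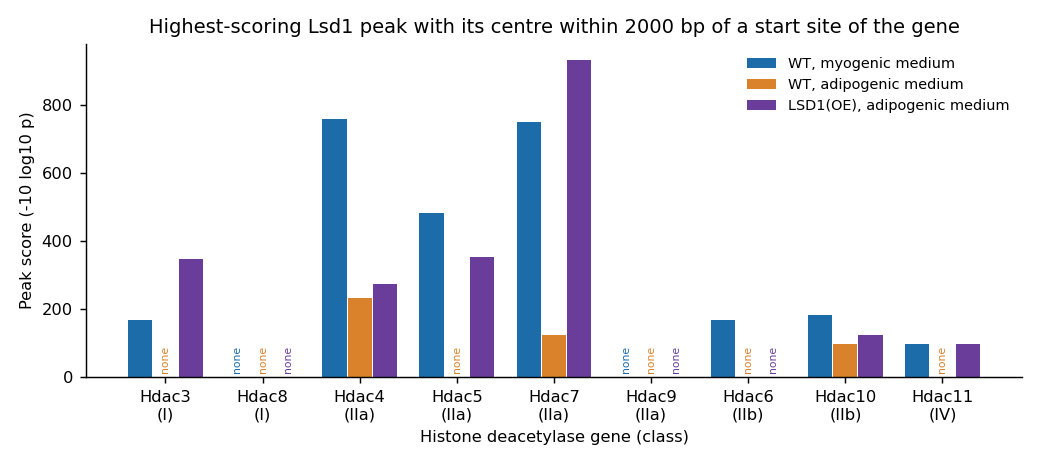
Score of the strongest Lsd1 peak centred within 2000 bp of a start site of each gene, on a linear axis from 0, with "none" where no such peak was called. Of the 9 genes, 4 lacked a promoter peak in adipogenic wild-type cells and had one in the myogenic library: Hdac3, Hdac5, Hdac6 and Hdac11.

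The class I gene Hdac3, on chromosome 18, had a promoter peak of 74 tags and a score of 169 in the myogenic library, centred 245 bp upstream of its start. The LSD1(OE) peak there held 113 tags and scored 348, while in the adipogenic library the nearest peak lay 19788 bp from the start. Tag density over the promoter site was 1.20 in the myogenic and 1.46 in the LSD1(OE) library, a log2 ratio of 0.28 with a counting interval of −0.14 to 0.70, which includes 0. Such intervals, here and below, do not cover the difference between libraries in the length over which a peak was called. Ratios of single sites are also not corrected for the median over all sites held by both libraries. That median was −0.32 for adipogenic over myogenic, 0.13 for LSD1(OE) over adipogenic and −0.19 for LSD1(OE) over myogenic. The centre of the LSD1(OE) peak was closer to the start of the neighbour Rell2, at 233 bp, than to that of Hdac3, at 338 bp. The centre of the myogenic peak was closer to the Hdac3 start. By summit the order was the reverse: the myogenic summit lay closer to the Rell2 start and the LSD1(OE) summit closer to the Hdac3 start. Neither promoter peak can therefore be given to 1 of the genes. The single adipogenic peak of the window, of 71 tags and score 84.6, was centred 276 bp from a Diaph1 start site. A myogenic peak of score 116 lay there too, 19 bp from that start, and in LSD1(OE) cells the nearest peak was 1530 bp away with a score of 54.8.

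Hdac8, the other class I member, occupies chrX:102284638-102505158 and was nearly bare. Its window of 241 kb held 1 site, in intron 9 and 154801 bp downstream of the start. The peak there had 54 tags and a score of 99.9 in the myogenic library, and 58 tags and a score of 57.7 in the adipogenic library, with none in LSD1(OE) cells. Such emptiness is common among long genes. Of the 1117 curated gene windows of at least 200 kb, 43.4% held at most 1 peak in the myogenic, 64.8% in the adipogenic and 52.7% in the LSD1(OE) library. Chromosome X, which carries Hdac8 and Hdac6, had 2.53, 0.52 and 1.51 peaks per Mb, against 15.9, 6.93 and 12.3 over the genome, and its part in these low counts was not tested.

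Hdac4, which encodes the class IIa deacetylase best known for repression of Mef2 targets in muscle, lies on the minus strand at chr1:91928779-92180341. Its window held 15 peaks in the myogenic, 13 in the adipogenic and 28 in the LSD1(OE) library, of which 14, 11 and 24 were centred inside the gene. Among the 1117 long windows its number of peaks ranked 101 in the myogenic, 17 in the adipogenic and 8 in the LSD1(OE) library. Its peaks per 100 kb were above those of 93.0%, 98.2% and 99.3% of these windows, in the same order. The order of the wild-type libraries depended on the peak lists: with only the 18893 highest-scoring peaks of each library, Hdac4 held 5 myogenic, 13 adipogenic and 19 LSD1(OE) peaks. With ChIP tags not scaled up to the input it held 8, 13 and 21. The LSD1(OE) library thus had the most Hdac4 peaks under each of these lists.

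The excess was not confined to the gene. In the flank of the same length on the 5′ side, 30 peaks were called in LSD1(OE) cells against 15 and 12 in the myogenic and adipogenic libraries. On the 3′ side there were 17 against 12 and 5.

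At the Hdac4 promoter the 3 libraries shared a summit. It lay 691 bp upstream of the start in the myogenic, 656 bp in the adipogenic and 652 bp in the LSD1(OE) library. The peak there scored 759 with 198 tags in the myogenic library, 233 with 134 tags in the adipogenic library and 273 with 128 tags in LSD1(OE) cells. Densities were 1.67, 1.28 and 1.36. In LSD1(OE) cells a second peak of 192 tags and score 450 lay immediately downstream, centred 2143 bp into intron 1, with its summit 2968 bp from the start. Upstream, beyond the promoter, there were 3 LSD1(OE) peaks, 1 adipogenic peak and no myogenic peak, and between 2 and 30 kb downstream there were 4 LSD1(OE) peaks and none in either wild-type library.

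Within Hdac4, 6 sites were called in all 3 libraries. Besides the promoter these were centred 49750, 52783, 80232, 93082 and 223653 bp downstream of the start, the first 4 of them in intron 2 and the last in intron 20. The site at 49750 bp held the highest adipogenic score of the gene, 290, and scored 271 in the myogenic and 327 in the LSD1(OE) library. Scores at 52783 bp were low in all 3, namely 61.7 in the myogenic, 84.1 in the adipogenic and 66.1 in the LSD1(OE) library. The site at 80232 bp scored 133, 246 and 373 in the same order, with its summits within 96 bp of each other. At 93082 bp the scores were 245, 223 and 562. The site at 223653 bp held the highest LSD1(OE) score of the gene, 839 with 224 tags, against 290 with 91 tags in the myogenic and 163 with 119 tags in the adipogenic library. Its density was higher in LSD1(OE) than in adipogenic wild-type cells, with a log2 ratio of 0.55 and a counting interval of 0.23 to 0.88. Near the 3′ end the myogenic library instead had a peak of 118 tags and score 658, 232672 bp from the start. The adipogenic peak there scored 153, and there was none in LSD1(OE) cells. The nearest start site to all peaks beyond 200 kb was that of Twist2, a repressor of myogenic factors, 118870 to 167887 bp away.

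**Figure D3:**
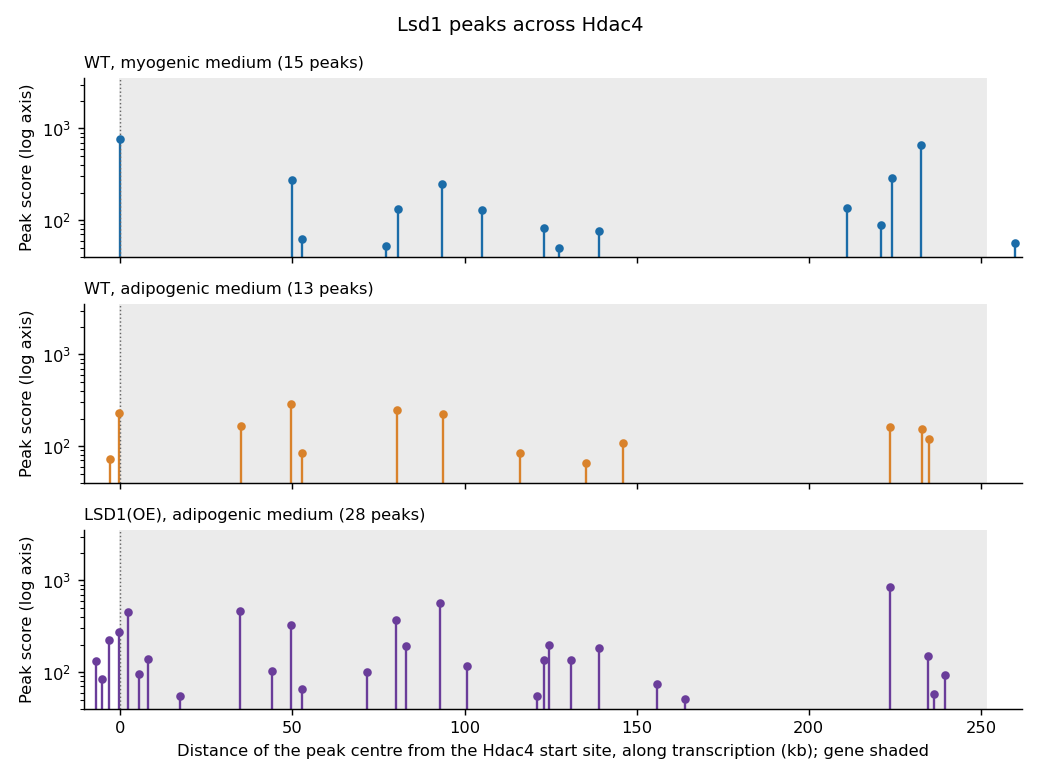
Score of each Lsd1 peak (log axis) by the distance of its centre from the Hdac4 start site in kb, 1 panel for each library, with the gene shaded. The 28 LSD1(OE) peaks include 3 more than 2 kb upstream, where the adipogenic library had 1 peak and the myogenic none, and 4 between 2 and 30 kb downstream, where neither wild-type library had any, and no library had a peak between 170 and 200 kb.

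Sites held by LSD1(OE) cells alone made up 16 of the 37 Hdac4 sites, or 43.2%, against 20.8% of all sites. Their scores ran from 51.5 to 196 with a median of 98.4, and their tag counts from 36 to 97. Of the 28 LSD1(OE) peaks of Hdac4, 9 were overlapped by a myogenic peak, or 32.1% (Wilson 95% interval 17.9 to 50.7%), against 59.8% of all LSD1(OE) peaks. An adipogenic peak overlapped 9 of the 28, again 32.1%, against 42.0% of all.

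Hdac7, a class IIa gene on the minus strand at chr15:97792664-97844502, has 4 curated start sites. Its window of 71.8 kb held 11 myogenic, 5 adipogenic and 10 LSD1(OE) peaks in 10 sites. The strongest peaks of the window lay downstream of the gene at the start of Slc48a1, a heme transporter gene, and not at Hdac7 itself. They scored 1542 in the myogenic, 1125 in the adipogenic and 2471 in the LSD1(OE) library, with summits within 46 bp.

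Inside Hdac7 a site in intron 1, 2850 bp downstream of the nearest of its start sites, was called in every library. This first intronic site scored 1296 with 276 tags in the myogenic, 845 with 429 tags in the adipogenic and 839 with 297 tags in the LSD1(OE) library. Over the whole site the density was 1.89, 1.73 and 1.57 in that order, and the adipogenic over myogenic log2 ratio of −0.13 had a counting interval of −0.34 to 0.07, which includes 0. The second intronic site, 6264 bp downstream of the nearest start, scored 751, 369 and 313. Its density was 2.01 in the myogenic and 1.43 in the adipogenic library, a log2 ratio of −0.49 with a counting interval of −0.80 to −0.18. For tags not divided by length it was −0.15 (−0.46 to 0.16), which includes 0. The summits of the 3 libraries lay within 60 bp of each other at the first and within 10 bp at the second site. The MEF2 match shown above for the second site starts 128 bp from its myogenic summit.

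The Hdac7 promoters were bound unequally. The strongest promoter peak lay around the start sites between the most upstream and the most downstream one. It scored 749 with 198 tags in the myogenic and 933 with 299 tags in the LSD1(OE) library. Its centre was 95 bp upstream and 65 bp downstream of the nearest start, in that order. The adipogenic peak of this site was centred 999 bp downstream of a start and scored 125 with 106 tags. Its summit lay 1383 bp downstream, against 14 bp downstream in the myogenic and 347 bp upstream in the LSD1(OE) library. The summits thus spanned 1730 bp, and the values below are of the whole site and not of 1 shared summit. Density of the whole site was 1.62 in the myogenic, 1.10 in the adipogenic and 1.55 in the LSD1(OE) library. The log2 ratio of adipogenic over myogenic was −0.56 (counting interval −0.88 to −0.23) and that of LSD1(OE) over adipogenic 0.49 (0.18 to 0.80). Over all sites held by both libraries the medians were −0.32 and 0.13. The former lies inside its interval here, and the latter lies below its interval. For tags not divided by length the ratios of this site were −1.65 (−1.98 to −1.33) and 2.04 (1.73 to 2.35). A further promoter peak, at the most downstream start, scored 422 with 143 tags in the myogenic and 180 with 87 tags in the LSD1(OE) library, and none was called there in the adipogenic library. The most upstream start had no promoter peak in any library.

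Hdac7 and Hdac10 lie on chromosome 15, where 35.9 myogenic, 19.0 adipogenic and 27.4 LSD1(OE) peaks were called per Mb. That was above the genome values of 15.9, 6.93 and 12.3. The median local background, in input tags per kb as solved from each peak's tags, length and score, was 51.8, 50 and 57.0 there. On each of the other chromosomes that carry these genes it was 46.8, 43.6 and 53.9. The part of the chromosome in the counts at Hdac7 and Hdac10 was not tested.

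Hdac5, whose class IIa product shares with Hdac4 its binding to Mef2, lies on the minus strand at chr11:102195747-102230172. It had 4 myogenic, 3 adipogenic and 6 LSD1(OE) peaks. Its promoter peak in the myogenic library held 118 tags, scored 483 and was centred 143 bp upstream of the start. In LSD1(OE) cells it held 149 tags, scored 354 and was centred 502 bp downstream. The nearest adipogenic peak was centred 11467 bp from the start. Adipogenic densities ran lower than myogenic ones in general, with a median log2 ratio of −0.32 over all shared sites. The shares of adipogenic peaks of like length, here and below, are not corrected for this. The myogenic density of 1.72 at the promoter was at or above that of 96.3% of the adipogenic peaks of like length. The LSD1(OE) density of 1.21 was at or above that of 20.4% of them. These peaks were called over 1483 bp in the myogenic and 2236 bp in the LSD1(OE) library, and the order turned with length: the log2 ratio of LSD1(OE) over myogenic was −0.51 per kb and 0.08 (counting interval −0.27 to 0.43) for tags not divided by length. The MEF2 match printed for this promoter starts 11 bp and ends 20 bp upstream of the annotated start. Mir8101 begins next to the Hdac5 start and was the nearest start site to the LSD1(OE) promoter peak.

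The other Hdac5 sites in all 3 libraries were intronic. The one in intron 3, 21285 bp downstream of the start, scored 913 with 220 tags in the myogenic, 206 with 134 tags in the adipogenic and 863 with 226 tags in the LSD1(OE) library. Its density was 1.75, 1.33 and 1.70, so that the adipogenic library stood lowest. The log2 ratio of LSD1(OE) over adipogenic was 0.36 (counting interval 0.05 to 0.67) and that of LSD1(OE) over myogenic −0.05 (−0.31 to 0.22). Each interval includes the median of its pair over all shared sites, 0.13 and −0.19. The site 11573 bp downstream covered parts of introns 2 and 3, with a strongest score of 908 in the myogenic, 260 in the adipogenic and 154 in the LSD1(OE) library. Densities there were 1.66, 1.27 and 1.20. The log2 ratio of LSD1(OE) over adipogenic was −0.08 (−0.37 to 0.21), and for tags not divided by length 0.17 (−0.12 to 0.46), both intervals including 0.

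**Figure D4:**
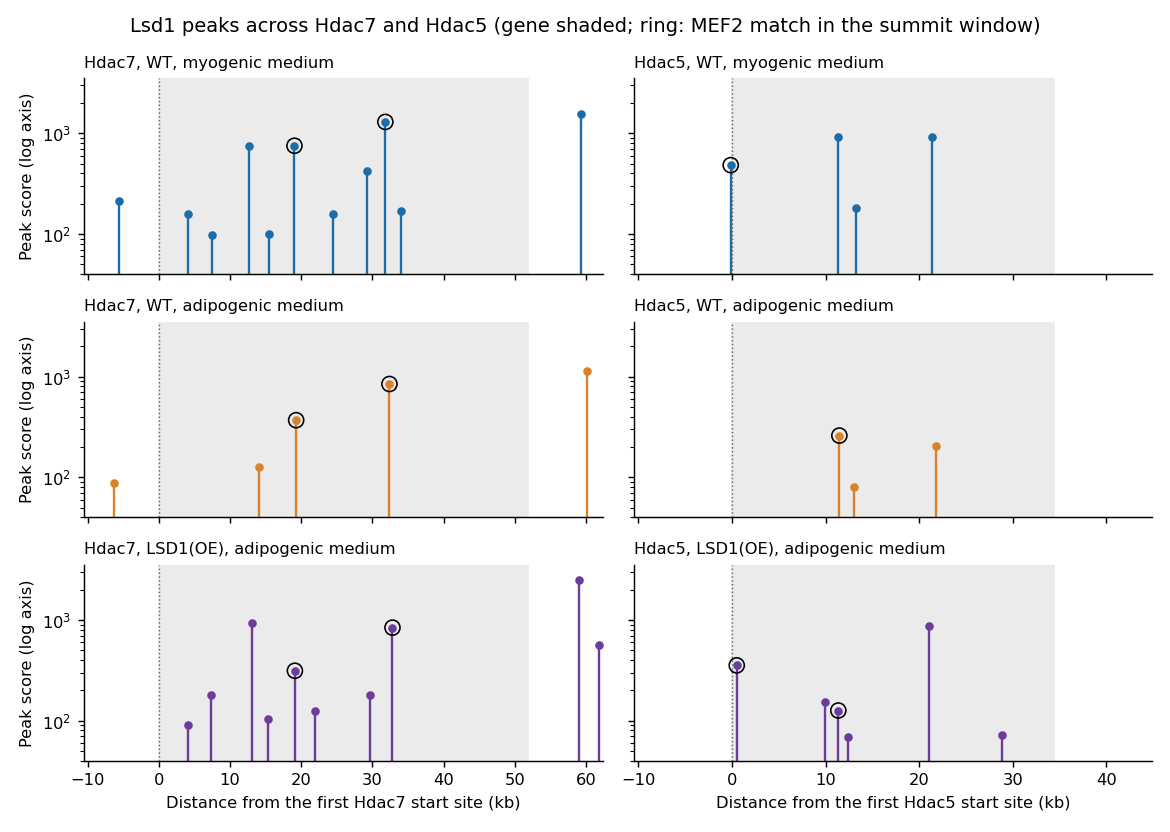
Score of each Lsd1 peak (log axis) by distance from the most upstream start site of Hdac7 (left) and Hdac5 (right) in kb, 1 row for each library, genes shaded and peaks with a MEF2 match within 150 bp of the summit ringed. Both ringed Hdac7 sites are present in all 3 libraries, and the Hdac5 promoter peak is missing from the adipogenic library.

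Hdac9, the fourth class IIa gene, spans 870 kb at chr12:34047582-34917095 and was the least bound of them. The myogenic library had 2 peaks, the stronger with 70 tags and a score of 217 in intron 27 and the other with 32 tags and a score of 65.5 in intron 3. LSD1(OE) cells had 1 peak of 41 tags and score 69.5 downstream of the gene, and the adipogenic library had none. The nearest start site to the intron 27 peak and to the LSD1(OE) peak was that of Twist1, at 118482 and 85167 bp. No site was shared between libraries.

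In class IIb, Hdac6 on chrX:7930122-7947889 had a single peak, at its promoter and in the myogenic library. It was centred 92 bp upstream of the start, with 59 tags, a score of 169 and a density of 1.35 (counting interval 1.03 to 1.74). That density was at or above 98.5% of the adipogenic peaks of like length, whose median density was 1.07. The median log2 ratio of −0.32, adipogenic over myogenic, over all shared sites is not taken into account in this share. The nearest peak to the start was 69626 bp away in the adipogenic and 63961 bp away in the LSD1(OE) library. The summit sequence printed above holds 3 matches to GGGCGG, all on the minus strand.

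Hdac10, a short gene at chr15:89123303-89128700, was bound at its start in all 3 libraries. The peak held 119 tags and scored 182 in the myogenic, 141 tags and 96.6 in the adipogenic and 66 tags and 125 in the LSD1(OE) library. Density was 1.75 in the myogenic, 1.17 in the adipogenic and 1.18 in the LSD1(OE) library, and the log2 ratio over the myogenic value was −0.58 (counting interval −0.93 to −0.22) for the adipogenic and −0.57 (−1.01 to −0.14) for the LSD1(OE) library. For tags not divided by length these were −0.22 (−0.58 to 0.13) and −1.11 (−1.54 to −0.67), so the first then included 0. The local background differed here: the myogenic peak had 80 input tags per kb against 57.8 and 57.0. Scaled ChIP tags over this background were 1.91-fold, 1.66-fold and 2.08-fold, which puts the LSD1(OE) library highest. The order of the libraries at Hdac10 therefore depends on whether the background is divided out. A second site in all 3 libraries lay at the start of the neighbour Tubgcp6, with scores of 237, 78.9 and 154.

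Hdac11, the class IV gene at chr6:91156815-91174683, had 5 myogenic, 2 adipogenic and 4 LSD1(OE) peaks. Its promoter peak held 49 tags and scored 97.2 in the myogenic library, centred 174 bp upstream of the start. In LSD1(OE) cells it held 56 tags and scored 98.3, centred 151 bp upstream. The log2 ratio of the densities was −0.07 with a counting interval of −0.62 to 0.48. No adipogenic peak was closer to the start than 17007 bp. The density of the myogenic promoter peak was at or above 70.8%, and that of the LSD1(OE) peak at or above 46.3%, of the adipogenic peaks of like length. The only site in all 3 libraries lay 24802 bp downstream of the start, beyond the gene, with scores of 107, 53.1 and 186. The highest myogenic score was 121 in the last exon, that of the adipogenic library 66.8 at the same site.

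Overlap between libraries was compared over all peaks of the 9 genes. Of the 44 myogenic peaks, 22 were overlapped by an adipogenic peak, or 50% (Wilson interval 35.8 to 64.2%), against 35.4% of all myogenic peaks. Of the 27 adipogenic peaks, 21 were overlapped by a myogenic peak, or 77.8% (59.2 to 89.4%), against 80.5% of all adipogenic peaks. The 6 that were not all lay at Hdac4, and outside Hdac4 every one of 14 adipogenic peaks was overlapped by a myogenic peak. LSD1(OE) peaks overlapped 26 of the 44 myogenic peaks, or 59.1% (44.4 to 72.3%), against 46.5% of all, and 19 of the 27 adipogenic peaks, or 70.4% (51.5 to 84.1%), against 74.5% of all. In the other direction 29 of the 54 LSD1(OE) peaks were overlapped by a myogenic peak, or 53.7% (40.6 to 66.3%), against 59.8% of all. An adipogenic peak overlapped 21 of the 54, or 38.9% (27.0 to 52.2%), against 42.0% of all. In 5 of these 6 comparisons the interval included the share over all peaks, and in the first it lay above it by less than 1 percentage point.

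By site, 15 of the 69 were held by all 3 libraries, or 21.7%, against 20.6% of all sites. Sites of LSD1(OE) cells alone were 22, or 31.9% against 20.8%, and 16 of these 22 were at Hdac4. Sites of the myogenic library alone were 12, or 17.4% against 35.9%. The 9 genes shared 9 sites between the myogenic and LSD1(OE) libraries that the adipogenic library lacked, or 13.0% against 12.2%, and 5 between both wild-type libraries that LSD1(OE) cells lacked, or 7.25% against 4.38%.

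Tag density was compared at sites held by both libraries of a pair. Adipogenic over myogenic, the median log2 ratio was −0.28 over 20 sites of the 9 genes, against −0.32 over all 14149 such sites. The counting interval lay above that median of all sites at 2 of the 20 and below it at none. LSD1(OE) over adipogenic, the median was 0.12 over 18 sites, against 0.13 over all 13053, and the interval lay above the median of all sites at 2 and below it at 2. LSD1(OE) over myogenic, the median was −0.06 over 24 sites, against −0.19 over all 18581, and the interval lay above the latter at 4 sites and below it at 1. These pairs share libraries, so they are not independent of each other. All 3 medians changed sign, to 0.26, −0.18 and 0.18, when tags were counted per tags in the sites held by all 3 libraries, a change that shifts the ratio at every site of a pair by the same amount. Among the genes, LSD1(OE) over myogenic had a median of 0.08 over 8 sites of Hdac4, −0.27 over 7 sites of Hdac7 and −0.47 over 3 sites of Hdac5. The medians of Hdac5 and Hdac7 lay below and that of Hdac4 above the median of all sites.

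**Figure D5:**
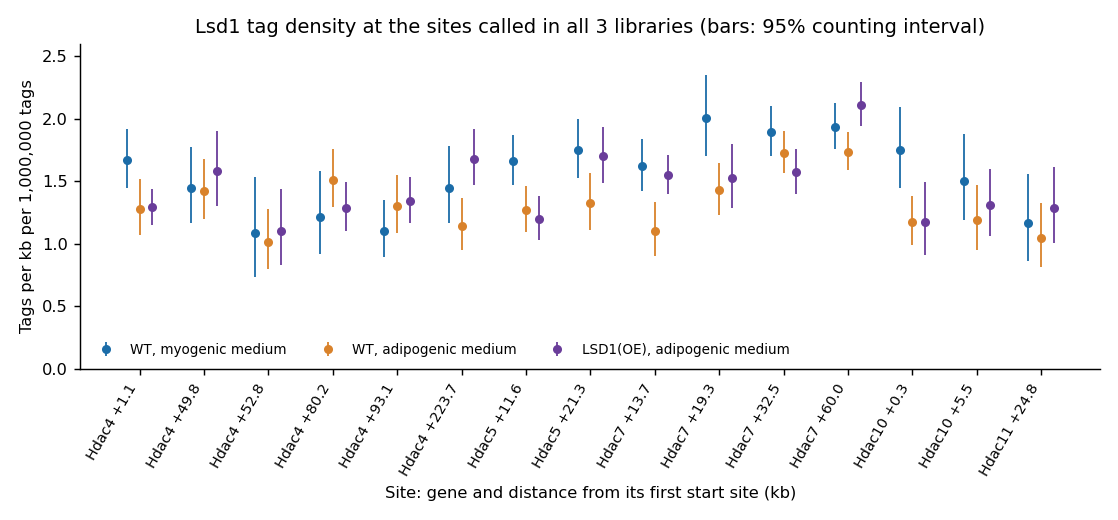
Lsd1 tag density, in tags per kb and per 1000000 filtered ChIP tags, at the 15 sites called in all 3 libraries, each named by its gene and the distance in kb from its most upstream start site, with bars for the 95% counting interval. Densities lay between 1.02 and 2.11, and at 4 of the Hdac4 sites the 3 intervals overlap.

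The summit windows of the peaks were searched on both strands for 6 motifs. The MEF2 motif was matched at 3 of 32 class IIa peaks in the myogenic, 3 of 21 in the adipogenic and 4 of 45 in the LSD1(OE) library, or 9.38%, 14.3% and 8.89%. Over all peaks the shares were 2.81%, 2.15% and 2.06%. The class IIa matches fell at 4 sites, the 2 intronic sites of Hdac7 and the promoter and intron 2 of Hdac5, and several libraries share them, so the peaks are not separate observations. No Hdac4 or Hdac9 peak held one, and outside class IIa 1 Hdac11 peak of LSD1(OE) cells did. A match says only that these letters occur in the window.

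CAGCTG, an E-box bound by myogenic basic helix-loop-helix factors among others, was matched at 13 of the 28 LSD1(OE) peaks of Hdac4, or 46.4%, against 25.9% of all LSD1(OE) peaks. The myogenic library had it at 4 of 15 Hdac4 peaks, or 26.7% against 25.8%, and the adipogenic library at 5 of 13, or 38.5% against 29.3%. TGANTCA, the AP-1 motif, was at 0 of the 28 LSD1(OE) peaks of Hdac4, against 18.1% of all. It was at 1 of 15 in the myogenic library, or 6.67% against 18.9%, and at 3 of 13 in the adipogenic library, or 23.1% against 20.3%. Over the peaks of the 9 genes it was at 15.9%, 14.8% and 9.26% in the myogenic, adipogenic and LSD1(OE) libraries. GGAATG, the core of the Tead motif, was at 8 of 44 myogenic, 5 of 27 adipogenic and 7 of 54 LSD1(OE) peaks of the 9 genes, or 18.2%, 18.5% and 13.0%, against 17.7%, 16.6% and 16.4% of all. GGGCGG was at 10, 7 and 7 of them, or 22.7%, 25.9% and 13.0%, against 21.3%, 26.1% and 20.96% of all. The glucocorticoid receptor palindrome, GNACA and TGTNC spaced by 3 bases, was at none of the peaks of the 9 genes, against 0.53%, 0.65% and 0.72% of all. The median G plus C content of the windows was 55.7%, 52.3% and 52.5%, near the 51.3%, 53.0% and 52.0% over all peaks.

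The genes that act with these deacetylases were counted by their promoter peaks, read against the shares of 46.8%, 27.0% and 37.3% of all curated genes given above. Of the CoREST deacetylases Hdac1 and Hdac2, both had a promoter peak in the myogenic and LSD1(OE) libraries and Hdac2 alone in the adipogenic library. Hdac2 scored 395, 145 and 171 in the myogenic, adipogenic and LSD1(OE) libraries, and Hdac1 scored 375 in the myogenic and 86.2 in the LSD1(OE) library.

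Among the 4 Mef2 genes, whose products class IIa deacetylases bind, 2 had a promoter peak in each wild-type library and 3 in LSD1(OE) cells. Mef2d scored 1807 in the myogenic, 177 in the adipogenic and 440 in the LSD1(OE) library, and Mef2a scored 860, 158 and 424. Of 20 genes for the kinases that phosphorylate class IIa deacetylases and the Ywha proteins that carry them out of the nucleus, 15 had one in the myogenic, 8 in the adipogenic and 14 in the LSD1(OE) library. Ywhaz had the highest score of these genes in each library, 2073, 519 and 1386, followed in the myogenic library by the kinase gene Camk2d with 939. The adipogenic library had the fewest such promoters among the kinase and carrier genes, as it had among the 9 deacetylases and over all curated genes.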

How the data were processed

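Lsd1 was measured by ChIP-seq in C2C12 cells on day 1, with 1 ChIP and 1 input library per condition, grouped by the labels. Single reads of 50 bp were mapped by the authors to mm10 with Bowtie, which the submitters' processing notes give as Bowtie2. The file headers name MACS 1.4.2 (1.41 in the submitters' processing notes), run for every ChIP with the input of its condition as control and with a p cut-off of 1e-05. The deposited tag counts per peak are not normalized. As deposited, a peak's score equals −log10 of its p-value multiplied by 10, with ChIP tags scaled up to the input by 1.90 (myogenic), 1.28 (adipogenic) and 1.82 (LSD1(OE)) before it was computed. The deposited fold enrichment is a ratio over the local background that is not on 1 scale in the 3 libraries and was not compared between them. The deposited FDR is a percent that MACS estimates by exchanging both samples, at most 0.37, 0.73 and 0.44 in these libraries. The labels give a longer adipogenic induction than the methods, both beyond the day measured.

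Member windows, promoters, overlaps and sites were computed from peak centres and 31647 curated RefSeq start sites. The local background was solved from tags, length and score. Densities have exact Poisson intervals, their log2 ratios 95% intervals from the tag counts, and shares Wilson intervals, all covering counting error only. Peaks of like length were within 10%. Motifs were searched in 300 bp around summits. Described were all 9 genes, the highest-scoring peak of each in each library, every promoter peak, every class IIa site of all 3 libraries, the genes of 5 lists by counts with the 2 highest-scoring named, and neighbours whose start site is nearest. These members and lists were chosen with earlier results of these data known. Alternatives were stricter peak lists, unscaled tags, other windows and overlaps, GENCODE start sites and leaving out Hdac4. The steps were tested on simulated data. Python 3.11.15, NumPy 2.4.6, pandas 2.3.3 and SciPy 1.17.1 were used. Reads were not analysed here, and 1 further gene list and 1 summit sequence are not reported here.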

Additional observations from a re-analysis of the deposited data

How the results depend on the processing

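With 1 library per condition, depth and antibody efficiency cannot be told apart from the condition, and the weakest called peaks held 27 to 35 tags. Of 129 settings tried on the counts, shares and medians, 103 left the value near the main one. The peaks at the 9 genes fell from 44, 27 and 54 (myogenic, adipogenic, LSD1(OE)) to 29, 14 and 31 at an FDR of at most 0.1%, to 29, 14 and 26 without Hdac4, a setting added after the data were seen, and rose to 93, 58 and 101 with a margin of 50 kb. With equal peak numbers 23 myogenic peaks were left, and at a score of at least 100 the adipogenic peaks were 15. Adipogenic genes with a peak fell from 7 to 3 at the FDR of 0.1% and at the score of 100, and LSD1(OE) genes from 7 to 4 with no margin. Promoter counts moved under no setting by over 1.5 times. With each peak given only to the gene of its nearest start site, however, Hdac3 and Hdac5 left the 6 of the LSD1(OE) library. With equal peak numbers the myogenic peaks overlapped by adipogenic ones were 69.6% and the reverse 55.6%, so the asymmetry of the main shares turned. Without Hdac4 the share overlapped by myogenic peaks was 100% of adipogenic and 76.9% of LSD1(OE) peaks. At a score of at least 100, 86.7% of adipogenic peaks were overlapped by LSD1(OE) ones.

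The density medians depended on the scaling. Per tags in sites of all 3 libraries all turned sign, to 0.26 (adipogenic over myogenic), −0.18 (LSD1(OE) over adipogenic) and 0.18 (LSD1(OE) over myogenic). With tags not divided by length they were −0.19, 0.35 and 0.19, the last with a turned sign. Without Hdac4 the last was −0.13. At single sites, a comparison added after the data were seen, leaving out the division by length turned the sign at 6 of 20, 6 of 18 and 5 of 24 sites in the same order of pairs. Among ratios whose interval lay on 1 side of 0, that of LSD1(OE) over myogenic turned at the Hdac5 promoter, to 0.079. It also turned at the merged site over the Hdac4 promoter, to 0.43. That site joins 2 LSD1(OE) peaks, with 128 tags at the promoter and 192 tags in intron 1. The myogenic library had 1 peak of 198 tags there, so the value of 0.43 is not that of the promoter peak alone. The cause of the turned signs was not tested. Of 23 strongest scores, 2 fell under 50 with unscaled tags. No paired analysis was possible because each group has 1 library.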

Other observations

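Promoter peaks at other histone acetylation enzymes were counted in the same way. All 7 sirtuin genes, whose products are NAD-dependent deacylases, had a promoter peak in the myogenic library, 4 in the adipogenic and 6 in the LSD1(OE) library, against 46.8%, 27.0% and 37.3% of all curated genes in that order. Sirt6 had the highest myogenic score, 697, with 187 in the adipogenic and 252 in the LSD1(OE) library, and Sirt1 scored 547 in the myogenic and 150 in the LSD1(OE) library with no adipogenic promoter peak. Of 9 histone acetyltransferase genes, 9 had one in the myogenic, 4 in the adipogenic and 8 in the LSD1(OE) library, read against the same shares. Kat2b, which encodes PCAF, a coactivator of MyoD, had the highest LSD1(OE) score, 1433 with 414 tags, against 329 with 103 tags in the myogenic and 196 with 121 tags in the adipogenic library. Ep300, which encodes p300, scored 1400 in the myogenic, 52.6 in the adipogenic and 394 in the LSD1(OE) library.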
